A study of Mus musculus with 8 samples.

Results

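Small nucleolar RNAs (snoRNAs) are short RNAs of the nucleolus, and their genes were followed here in mouse blood stem and progenitor cells that received KLF7. The members were the genes with a single symbol beginning Snora or Snord and a digit in the platform's annotation, and there were 51 of them among 19938 measured genes. Of these, 20 were H/ACA snoRNAs (Snora) and 31 were C/D snoRNAs (Snord). Where a gene had several probe sets, the brightest on average across the 8 arrays was taken. Members were therefore chosen by name and by overall level. The class itself was chosen with earlier results of these data known, so its levels are given as a description only.

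Most snoRNAs act as guides. C/D snoRNAs pair with ribosomal RNA and direct the methylation of ribose at the paired base by fibrillarin, and H/ACA snoRNAs direct the conversion of uridine to pseudouridine by dyskerin. A few, such as U8, U14, U17 and U22, are needed for cutting the ribosomal RNA precursor itself. Most vertebrate snoRNAs have no promoter of their own: they lie in introns of host genes, often genes of ribosomal proteins or translation factors, and are trimmed from the spliced intron.

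The cells came from the bone marrow of C57Bl/6 mice. Those positive for c-Kit, the receptor of stem cell factor, were given a lentivirus that expresses KLF7, a DNA-binding factor of the Krüppel-like family, or else a control virus. The labels give no age or sex, and do not name the insert of the control virus. After 72 hours the Lin- c-Kit+ Sca-1+ cells, a fraction enriched for stem and early progenitor cells, were sorted, and their amplified RNA was hybridised, 1 array to a sample. There were 4 KLF7 arrays and 4 control arrays. What the replicate numbers stand for is not given in the labels, so the p-values measure spread between arrays and this spread may be technical. In bulk samples, fewer cells of a type and less RNA per cell cannot be told apart.

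Array medians ran from 46.2 to 54.1 intensity units. The transduced gene, Klf7, was at log2 levels of 11.43, 10.19, 11.05 and 10.52 on the KLF7 arrays, and 8.53, 10.28, 9.35 and 7.98 on the control arrays, so KLF7 2 lay below control 2. Its difference was 1.76 (SE 0.46, limma adjusted p 0.327). Of 8 markers written for the sorted fraction, 6 were measured, with mean levels of 8.40 to 8.97 on the KLF7 arrays and 8.47 to 8.95 on the control arrays. Of these 6, 5 had a higher KLF7 mean, at differences of up to 0.31 (Kit), and Hlf, which blood stem cells express, was lower without overlap, at -0.90 (SE 0.23, limma adjusted p 0.327). The list means hide differences between arrays. Kit was at 7.85 on KLF7 4 and 8.33 on control 4, against 9.57 to 10.52 on the other arrays. Gata2 was also lowest on these arrays of each group, whereas Cd34, Flt3 and Meis1 were highest there. Ly6a, the gene of Sca-1, was not among the measured markers. B cell and T cell markers were low in both groups, with list means from 3.42 to 5.10. Of 13 measured markers of mature myeloid and dendritic cells, 10 were on average higher with KLF7, and the list's mean per array ran from 7.46 to 8.26 there and from 6.74 to 7.67 on the control arrays. Their part in the snoRNA differences was not tested.

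The sequences that bear on these genes are those of the start sites from which the leading members' hosts are transcribed, since an intronic snoRNA shares its host's promoter. Below are 25 bases before to 50 bases from the annotated start of the genes whose spans hold the 3 members with the smallest p in each class, from RefSeq on GRCm38.p6. Capitals mark only the letters of any of 4 pyrimidine motifs (the letters CTTT, the letters CTCT, the letters CCTT and the letters CTTC) within 10 bases before to 12 bases from the start, read on the strand of the transcript. A pyrimidine stretch at the start is the mark of the terminal oligopyrimidine class of genes, to which ribosomal protein genes and many snoRNA hosts belong.
Snhg12 (span of Snora44), chr4:132308653-132308727, plus strand: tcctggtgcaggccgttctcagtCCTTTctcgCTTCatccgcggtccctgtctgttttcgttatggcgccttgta
Rpsa (span of Snora62), chr9:120127741-120127815, plus strand: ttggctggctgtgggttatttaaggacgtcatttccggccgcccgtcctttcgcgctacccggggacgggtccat
Ipo7 (span of Snora23), chr7:110018290-110018364, plus strand: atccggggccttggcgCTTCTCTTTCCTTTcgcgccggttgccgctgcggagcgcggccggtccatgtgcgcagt
Gm36220 (span of Snord104), chr11:106500890-106500964, plus strand: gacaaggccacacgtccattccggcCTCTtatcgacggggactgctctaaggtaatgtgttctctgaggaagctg
Gas5 (span of Snord47), the second start listed, chr1:161035141-161035215, plus strand: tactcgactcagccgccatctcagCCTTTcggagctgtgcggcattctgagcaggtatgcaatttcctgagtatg
1110038B12Rik (span of Snord52), the first start listed, chr17:34952422-34952496, minus strand: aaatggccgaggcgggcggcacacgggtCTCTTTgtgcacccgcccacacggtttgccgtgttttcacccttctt

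These 4 motifs overlap each other in letters. On the transcript's strand at least 1 of them was present in 18 of the 32 start windows of host genes that the RefSeq table holds (56.2%), against 28.9% of all 32851 windows of the same 22 bases. Counting either strand, the shares were 78.1% and 53.4%. These shares are a description of the letters near the start, and Rpsa and the first start listed for Gas5, which is not shown, had no match in their windows.

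The snoRNA sequences themselves were not used here, with 1 exception. The mature microRNA mmu-miR-5121 occupies the same 21 bases, chr7:45126925-45126945 (GRCm38.p6, minus strand), that form one end of the 82-base span of Snord33. Capitals mark the letters UGAUGA, at bases 7 to 12, which are those of the C box, one of the 2 motifs that give C/D snoRNAs their name.
mmu-miR-5121: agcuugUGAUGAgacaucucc

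Across both classes, most snoRNA genes had lower mean levels on the KLF7 arrays than on the control arrays. Of 51, 44 had a lower mean and 7 a higher one, with differences from -1.29 to 0.82 and a median of -0.39 on the log2 scale, where all genes had a median of 0.0019 and 49.6% had a lower mean. No single member passed the test of group alone. In limma with Benjamini-Hochberg adjustment over all genes, 0 of 51 members had an adjusted p under 0.05, the share over all genes was 0%, and the smallest member value was 0.290, in Snord104 and in Snora44. At an unadjusted p under 0.05 in limma, 14 members were lower (27.5%) and 1 was higher, against 3.56% of all genes lower and 4.65% higher. The KLF7 and control arrays did not overlap for 8 members, all lower (15.7%), against 2.38% of all genes lower and 2.83% higher. No test of the list was made, so these shares are a description of 8 arrays.

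**Figure D1:**
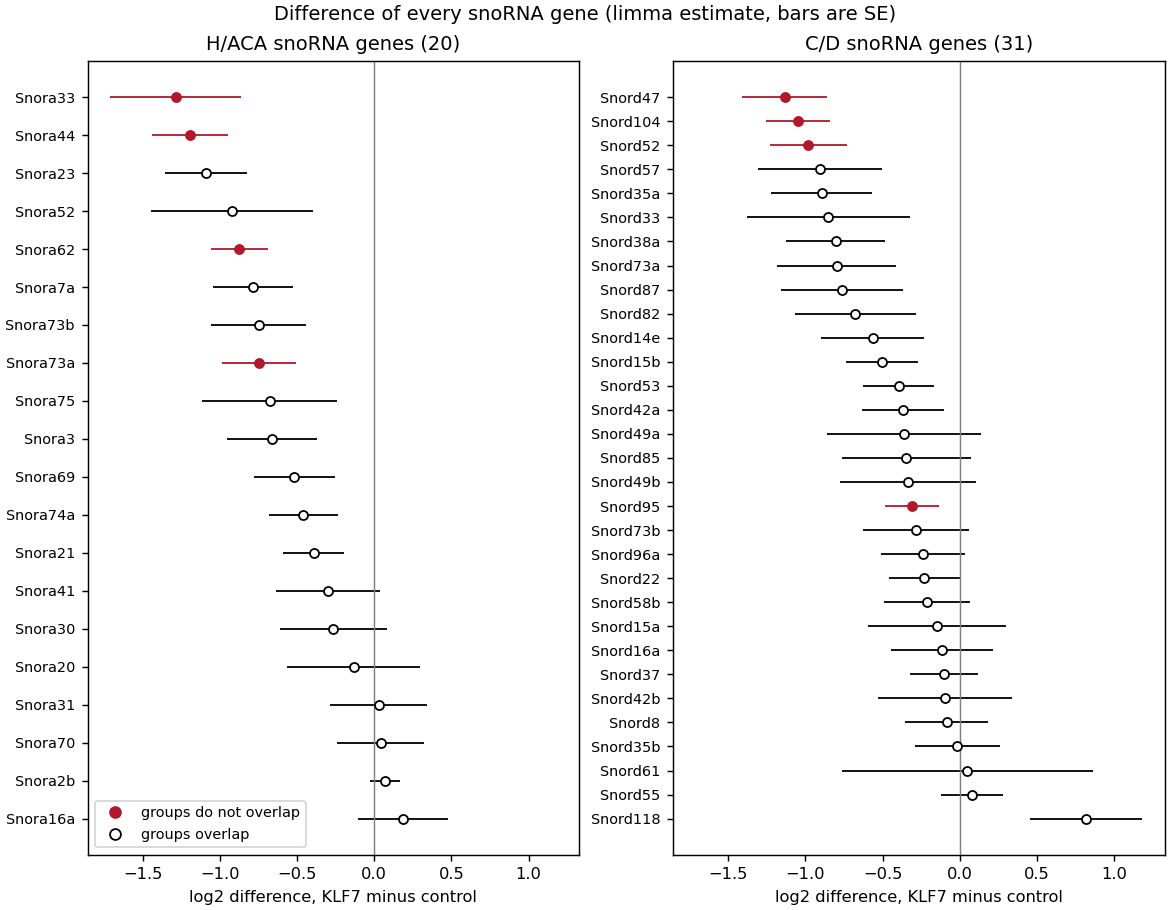
Log2 difference in level, KLF7 minus control, of each of the 51 snoRNA genes (points are limma estimates, bars their standard errors, n = 4 arrays a group). Filled points mark the 8 genes whose KLF7 arrays all lay below the control arrays. Of the 51 points, 44 lie left of 0, and Snord118 stands at 0.82 on the right.

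Class means ordered the arrays in the same way at both ends of the overlap. The mean of the 20 H/ACA genes was 7.11, 6.78, 6.60 and 6.62 on KLF7 arrays 1 to 4, and 7.46, 7.35, 7.45 and 6.996 on control arrays 1 to 4. The mean of the 31 C/D genes was 6.64, 6.05, 6.07 and 6.15 on the KLF7 arrays, and 6.78, 6.94, 6.66 and 6.16 on the control arrays. In both classes KLF7 1 was the highest KLF7 array, control 4 was the lowest control array, and KLF7 1 lay above control 4. The class means differed by -0.54 for H/ACA and -0.41 for C/D genes, with SDs between arrays of 0.23 (KLF7) and 0.22 (control) for H/ACA and of 0.28 (KLF7) and 0.34 (control) for C/D genes.

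**Figure D2:**
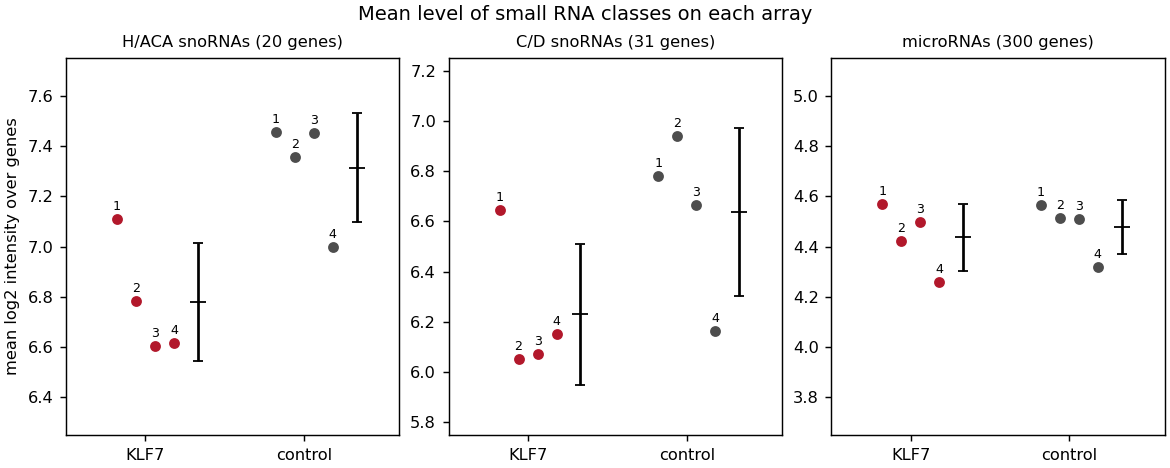
Mean log2 intensity over the genes of a class on each array, with the replicate number beside each point and the group's mean ± SD to its right (n = 4). The H/ACA and C/D panels show KLF7 arrays 2 to 4 below all control arrays, and KLF7 1 above control 4. The microRNA panel is drawn over the same height of axis. Its means were 4.26 to 4.57 on the KLF7 arrays and 4.32 to 4.56 on the control arrays. These lie below the means of all genes, 5.91 and 5.90.

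Counted gene by gene, the lowest of a member's 8 values lay on a KLF7 array for 43 members and on a control array for 8. The highest value lay on a KLF7 array for 11 members and on a control array for 40. KLF7 3 held the lowest value of 20 members, KLF7 4 that of 13 and KLF7 2 that of 8, whereas KLF7 1 held it for 2. On KLF7 arrays 1 to 4, 29, 45, 41 and 42 of the 51 members lay below their own control median. On control arrays 1 to 4, 23, 15, 20 and 44 members did. Control 4 thus resembled the KLF7 arrays in this count. Without control 4, 22 members were lower at an unadjusted p under 0.05 in limma, in place of 14. Over all genes 1784 were at an unadjusted p under 0.05 in either direction in that fit, in place of 1637. Leaving out any other single array gave from 11 lower members (KLF7 4 or control 3) to 19 (KLF7 1).

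Other short RNAs varied between these arrays as well. The mean of 300 microRNA genes was lowest on KLF7 4 (4.26) and control 4 (4.32) and highest on KLF7 1 (4.57) and control 1 (4.56), and its group difference was -0.04. Of the 300, 159 were on average lower with KLF7 (median difference -0.01), and at an unadjusted p under 0.05 in limma 9 were lower and 5 higher, against 3.56% of all genes lower and 4.65% higher. The 3 measured small Cajal body RNAs, relatives of the snoRNAs that guide the modification of spliceosomal RNAs, were at 7.80 on KLF7 4 and 7.61 on control 4, against 8.28 to 9.71 on the other arrays. The microRNA means lay below the mean of all genes, which was 5.91 on the KLF7 arrays and 5.90 on the control arrays. At such levels a difference is limited by signal over background, so the microRNAs are no measure of short RNAs in general. How well the purification columns and the amplification kept RNAs of this length on each array was not tested.

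Among the H/ACA genes, 16 of 20 were on average lower with KLF7 and the median difference was -0.59. The unadjusted p was under 0.05 for 8, all lower (40.0%, against 3.56% of all genes), and 4 had groups that did not overlap, all lower (20%, against 2.38% of all genes). Snora44, held by the span of the long noncoding host gene Snhg12, led them. Its log2 levels were 6.76, 6.46, 6.57 and 6.34 on the KLF7 arrays, and 7.84, 8.16, 7.92 and 6.98 on the control arrays. The groups did not overlap, and control 4 was the nearest to the KLF7 arrays. Snora44 differed by -1.19 (SE 0.25, 2.29-fold lower), with a limma adjusted p of 0.290. In a fit with a batch term for the arrays numbered 4, chosen after seeing the data, its limma adjusted p was 0.0428, and over the settings with group alone it ran from 0.0627 to 0.800.

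Snora62, held by the span of Rpsa, a gene of the small ribosomal subunit, had levels of 5.83, 5.84, 5.71 and 6.07 on the KLF7 arrays, and 7.19, 6.54, 6.81 and 6.41 on the control arrays. All KLF7 arrays lay below all control arrays. The difference was -0.87 (SE 0.19, 1.83-fold lower), with a limma adjusted p of 0.291. Snora23, in the span of the nuclear import receptor gene Ipo7, had levels of 8.91, 8.07, 7.89 and 8.004 on the KLF7 arrays, and 9.60, 9.44, 9.39 and 8.81 on the control arrays. Only KLF7 1 reached above a control array, control 4. Its difference was -1.09 (SE 0.27, 2.13-fold lower), with a limma adjusted p of 0.325.

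Snora33, in the span of the ribosomal protein gene Rps12, had the lowest difference of any member, -1.29 (SE 0.43, 2.44-fold lower, limma adjusted p 0.442). Its levels were 6.70, 6.90, 5.40 and 6.93 on the KLF7 arrays, and 7.86, 7.03, 8.82 and 7.37 on the control arrays. The groups did not overlap, but the arrays numbered 3 lay far out on opposite sides, and the difference was -0.93 without KLF7 3 and -0.94 without control 3. Snora7a, in the span of Rpl32, differed by -0.78 (SE 0.26), with levels of 7.72 to 8.41 on the KLF7 arrays and 8.37 to 9.42 on the control arrays, which overlapped in 1 pair.

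The U17 snoRNAs, Snora73a and Snora73b, belong to the H/ACA class but serve in cutting the precursor of the 18S ribosomal RNA. Both lie in the span of Snhg3. Snora73a had levels of 7.47, 7.36, 7.78 and 7.26 on the KLF7 arrays, and 7.83, 8.79, 8.39 and 7.84 on the control arrays. The groups did not overlap, with KLF7 3 close under control 1 and control 4, and the difference was -0.75 (SE 0.24, limma adjusted p 0.435). Snora73b differed by the same -0.75 (SE 0.31, limma adjusted p 0.556), at 7.77, 7.90, 8.16 and 8.06 on the KLF7 arrays and 8.30, 9.71, 8.72 and 8.16 on the control arrays, and was at -0.42 without control 2. These near-copies may share probe signal.

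Other H/ACA genes varied more within the groups. Snora52, in the span of Rplp2, differed by -0.92 (SE 0.53), and ran from 7.38 to 9.43 on the KLF7 arrays and from 8.13 to 10.39 on the control arrays, with both arrays numbered 4 the lowest. Its difference was -0.55 without KLF7 4 and -0.60 without control 2. Snora75, in the span of nucleolin (Ncl), differed by -0.68 (SE 0.44), and by -1.11 without KLF7 1, -0.42 without KLF7 3 and -0.40 without control 1. Snora3 differed by -0.66 (SE 0.29), Snora69 by -0.52 (SE 0.26) and Snora74a by -0.46 (SE 0.22). Snora69 was at -0.31 without control 4 and Snora74a at -0.22 without control 1. Snora20 stood at -0.13 (SE 0.43). The 4 genes with a higher mean were Snora16a at 0.18 (SE 0.29), Snora2b at 0.07 (SE 0.10), Snora70 at 0.04 (SE 0.28) and Snora31 at 0.03 (SE 0.31). Each of these 4 lay within the spread between arrays. The remaining 3, Snora21, Snora41 and Snora30, ran from -0.39 to -0.26.

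**Figure D3:**
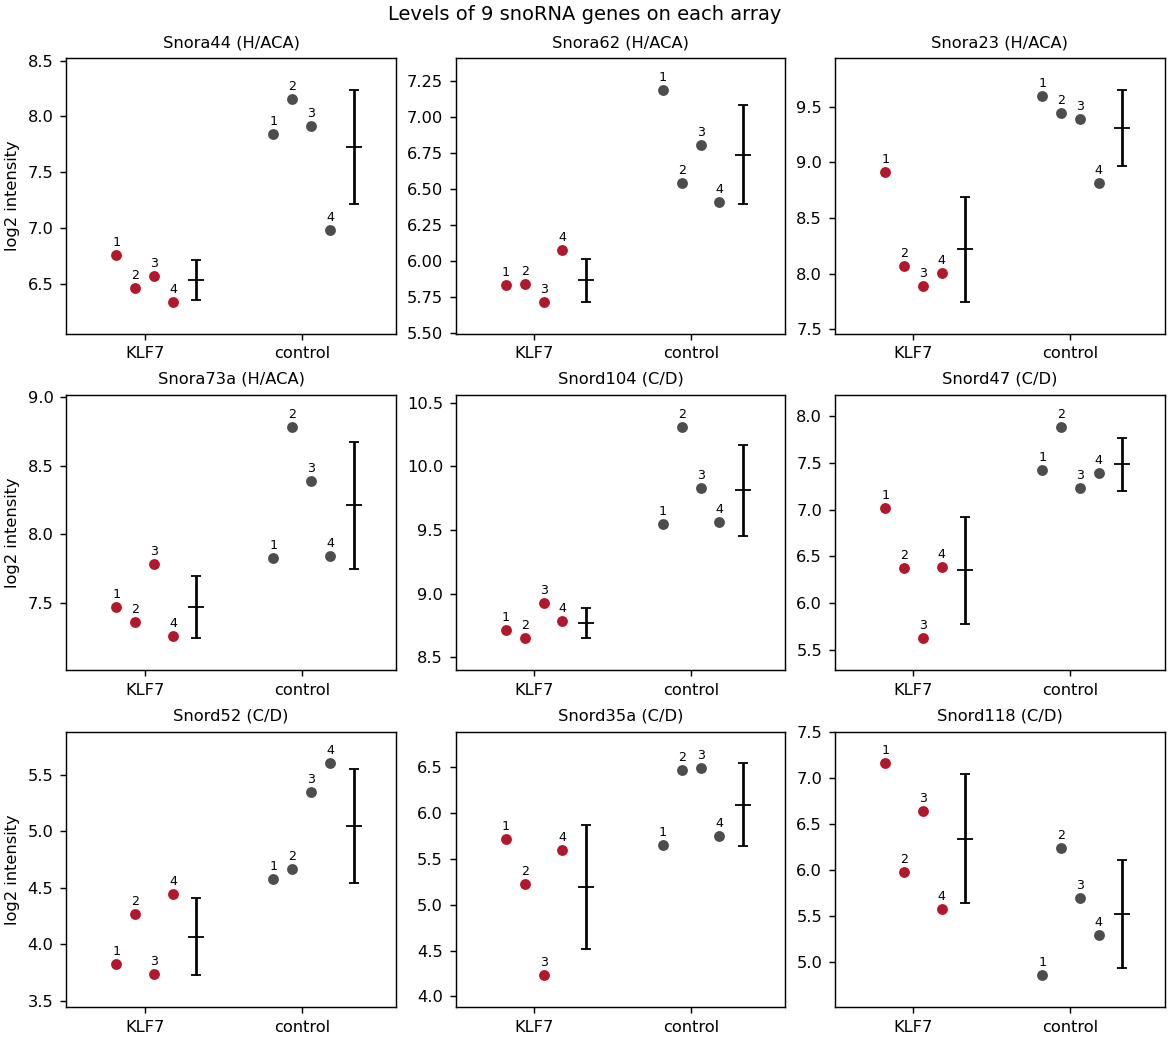
Log2 intensity on each array of the 4 H/ACA and the 4 C/D genes with a lower mean and the smallest p, and of Snord118. Points carry the replicate number, and the mean ± SD (n = 4) stands to the right of each group. Snora44, Snora62, Snora73a, Snord104, Snord47 and Snord52 show no overlap between KLF7 and control, and Snord118 is the 1 panel with a higher KLF7 mean.

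Among the C/D genes, 28 of 31 were on average lower with KLF7 and the median difference was -0.35. Without control 2, 22 were lower and 9 higher. At an unadjusted p under 0.05, 6 were lower (19.4%, against 3.56% of all genes) and 1 was higher (4.65% of all genes were). For 4 the groups did not overlap, all lower (12.9%, against 2.38% of all genes). Snord104 had the smallest p. Its levels were 8.71, 8.65, 8.93 and 8.78 on the KLF7 arrays, and 9.55, 10.31, 9.83 and 9.57 on the control arrays. The gap between the groups was wider than the whole range of the KLF7 arrays. Snord104 differed by -1.05 (SE 0.21, 2.06-fold lower), with a limma adjusted p of 0.290.

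Snord47 lies in the span of Gas5, a noncoding host gene known for its many C/D snoRNAs. Its levels were 7.01, 6.37, 5.62 and 6.38 on the KLF7 arrays, and 7.42, 7.89, 7.23 and 7.39 on the control arrays. Here too the groups did not overlap, with KLF7 1 nearest to the control arrays. Snord47 differed by -1.13 (SE 0.27, 2.19-fold lower, limma adjusted p 0.323). Snord52 had levels of 3.83, 4.27, 3.73 and 4.44 on the KLF7 arrays, and 4.57, 4.67, 5.35 and 5.60 on the control arrays. It differed by -0.98 (SE 0.25, limma adjusted p 0.327), and was among the dimmer 50% of all genes. The fourth gene without overlap was Snord95, which was picked out after its values were seen: it ran from 7.07 to 7.26 on the KLF7 arrays and from 7.27 to 7.88 on the control arrays (difference -0.31, SE 0.18, and -0.17 without control 1).

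The snoRNAs of Rpl13a are known from mouse and hamster cells as mediators of the response to excess fatty acid. Snord35a and Snord33 were the 2 measured here on their own. Snord35a had levels of 5.72, 5.23, 4.23 and 5.60 on the KLF7 arrays, and 5.65, 6.47, 6.49 and 5.75 on the control arrays. Its difference of -0.90 (SE 0.33, limma adjusted p 0.482) rested in part on KLF7 3, without which it was -0.57. Snord33 was at 7.24, 6.21, 7.96 and 6.09 on the KLF7 arrays and 8.17, 8.67, 7.77 and 6.29 on the control arrays, a difference of -0.85 (SE 0.53) that was -0.54 without control 2 and -1.33 without control 4. In Snord33 the arrays numbered 4 were the lowest of both groups and the groups overlapped.

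Snord38a differed by -0.80 (SE 0.32) and was at -0.48 without KLF7 3. Snord57, in the span of Nop56, itself a gene of a snoRNA-binding protein, had levels of 7.12, 6.07, 5.83 and 6.37 on the KLF7 arrays, and 8.38, 6.39, 7.27 and 6.97 on the control arrays. The difference was -0.91 (SE 0.40), and -0.53 without control 1, its highest value. Snord61 had the widest spread of all members, with 5.62, 4.73, 6.64 and 5.96 on the KLF7 arrays and 8.42, 5.76, 4.73 and 3.86 on the control arrays, and a difference of 0.05 (SE 0.81). Snord49a at -0.36 (SE 0.50) and Snord49b at -0.34 (SE 0.44) also varied more than their difference, and stood at 0.19 and 0.05 without control 2. Snord58b, the C/D member of lowest mean, was at -0.21 (SE 0.28) and Snord15a at -0.15 (SE 0.45). Snord16a stood at -0.11 (SE 0.33) and Snord55 at 0.08 (SE 0.20). The other 13 C/D genes ran from -0.80 (Snord73a) to -0.02 (Snord35b), none at an unadjusted p under 0.05.

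The C/D snoRNAs that serve in cutting ribosomal RNA differed in sign. Snord118 is the U8 RNA, needed to mature the 5.8S and 28S ribosomal RNAs. It was the 1 member of 51 higher at an unadjusted p under 0.05 in limma, as 4.65% of all genes were. Its levels were 7.16, 5.97, 6.64 and 5.58 on the KLF7 arrays, and 4.86, 6.24, 5.70 and 5.29 on the control arrays. The groups overlapped, and the difference of 0.82 (SE 0.36, 1.76-fold higher, limma adjusted p 0.606) was 0.54 without KLF7 1. Snord118 was also the 1 member that lay in no span of another gene in the RefSeq table. Snord14e, a U14 RNA of the heat shock protein gene Hspa8, which serves in 18S processing and also guides methylation, was at -0.56 (SE 0.33), and at -0.31 without KLF7 4 and -0.36 without control 2. Snord22, the U22 RNA of Snhg1, was at -0.23 (SE 0.23). U3, the most abundant of these RNAs in most cells, is listed as Rnu3a and falls outside the naming rule. Looked up besides, it was at -0.17 (SE 0.42).

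A second probe set gave 5 members another reading. For Snora30 and Snord118 the 2 probe sets held the same values on all 8 arrays, so they add nothing. For Snora3 the differences were -0.66 and -0.66, for Snora21 -0.39 and -0.42, and for Snord58b -0.21 and -0.10. The chosen and the other probe set thus had the same sign in each. The spans of snoRNAs on GRCm38 ran from 45 to 205 bases, and over the 51 members their length and their difference correlated at r = -0.07 (Spearman's rho -0.05). The mean level and the difference correlated at r = -0.36 (rho -0.35), over genes that share arrays and often hosts. Of the 35 members among the brighter 50% of all genes, 31 were on average lower, and the median was -0.56, or -0.75 for the 15 H/ACA and -0.38 for the 20 C/D genes among them.

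Host genes were set beside their snoRNAs. By position, 50 of the 51 members lay within the span of another gene, 37 in a protein-coding one and 13 in a long noncoding one, and 21 of them within a gene whose symbol begins Rpl or Rps. The table used gives no strand. Of 24 snoRNAs with a single probe set and a host measured on its own, held by 20 hosts, both the snoRNA and its host had a lower mean in 20 cases. The hosts had a median difference of -0.33, with 19 of 20 lower and 6 of them at an unadjusted p under 0.05 (3.56% of all genes were lower at it), and the 24 snoRNAs had a median of -0.38. In 14 of the 24 the snoRNA's difference was below its host's. Over the 24 pairs the 2 differences correlated at r = 0.28 (rho 0.30), where several snoRNAs share a host and all share the arrays.

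Some pairs differed widely. Snora33 stood at -1.29 and its host Rps12 at -0.22 (SE 0.15), Snord47 at -1.13 and Gas5 at -0.33 (SE 0.18), and Snord73a at -0.80 and Rps3a1 at -0.00 (SE 0.17). In the opposite way, Snora2b was at 0.07 while its host Kansl2, which encodes a subunit of a histone acetyltransferase complex, was at -0.81 (SE 0.21, limma adjusted p 0.327). Snord57 and Nop56 were at -0.91 and -0.70, and Snora75 and Snord82 were both at -0.68 in a host, Ncl, at -0.59 (SE 0.20). Each host's value was that of its brightest probe set, out of 14 for Rps12 and 4 for Gas5, while Rps3a1 had 1. Whether the chosen probe set reads the copy of the gene that holds the snoRNA was not tested. Whether a probe set reads the mature snoRNA or the host's intron before it is trimmed cannot be told apart on these arrays.

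**Figure D4:**
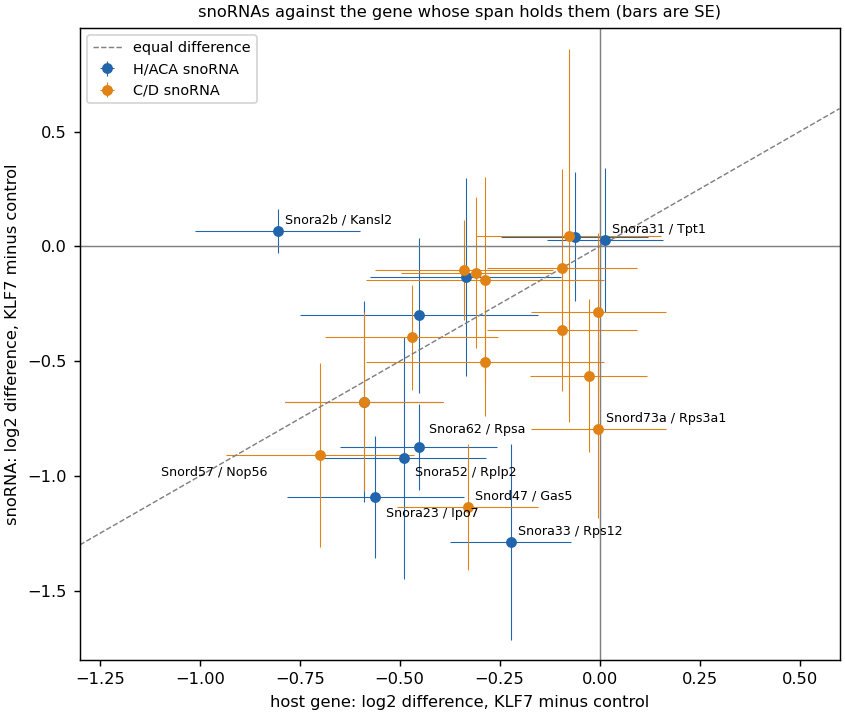
Log2 difference, KLF7 minus control, of 24 snoRNAs (vertical) against that of the gene whose span holds each (horizontal), with standard errors as bars. The dashed line marks equal differences. Of the points, 20 lie below 0 on both axes, with Snora33 and Snord47 far below the line and the dim Snora2b far above it.

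Members that share a host were compared with each other in 10 pairs. For 5 of these the 2 differences lay within 0.10 of each other: Snora73b and Snora73a in Snhg3, Snora75 and Snord82 in Ncl, Snord49a and Snord49b in 2410006H16Rik, Snord35a and Snord33 in Rpl13a, and Snord95 and Snord96a in Rack1. The widest gap was in Snhg12, where Snora44 was at -1.19 and Snora16a at 0.18. The log2 ratio of Snora44 over Snora16a was 1.60, 1.03, 2.56 and 1.47 on the KLF7 arrays, and 3.07, 4.04, 2.94 and 2.12 on the control arrays. The ratio overlapped between KLF7 3 and control 4. The gaps were not tested.

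Of the 6 noncoding RNA genes named Snhg or Gas5 that were measured on their own, all were on average lower with KLF7 (median difference -0.30), although 0 passed over all genes in limma. Snhg16 was the 1 gene of these at an unadjusted p under 0.05 (3.56% of all genes were lower at it). It was also lower without overlap, as were 2.38% of all genes. Its levels were 6.33, 5.90, 5.75 and 6.66 on the KLF7 arrays, and 6.72, 7.02, 6.93 and 7.10 on the control arrays. Its difference was -0.79 (SE 0.21, limma adjusted p 0.351). Snhg17 was at -0.47 (SE 0.27), Gas5 at -0.33 (SE 0.18) and Snhg5 at -0.26 (SE 0.28).

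The proteins that bind snoRNAs were examined next. All 8 measured core protein genes were on average lower with KLF7 (median difference -0.55), and 4 were lower at an unadjusted p under 0.05 (3.56% of all genes were). None passed over all genes in limma. Dkc1, which encodes dyskerin, the pseudouridine synthase of H/ACA particles, had levels of 6.08, 7.10, 6.75 and 7.40 on the KLF7 arrays, and 7.72, 7.53, 7.65 and 8.12 on the control arrays. All KLF7 arrays lay below all control arrays. The difference was -0.92 (SE 0.27, 1.90-fold lower, limma adjusted p 0.387).

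Nop56, a scaffold of the C/D particle, had levels of 8.89, 9.18, 8.38 and 9.38 on the KLF7 arrays, and 9.65, 9.64, 9.44 and 9.91 on the control arrays. Those groups did not overlap either, and the difference was -0.70 (SE 0.23, limma adjusted p 0.448). Its partner Nop58 was at -0.57 (SE 0.23) and the H/ACA protein gene Gar1 at -0.59 (SE 0.25). Fbl, which encodes the methyltransferase fibrillarin, was at -0.43 (SE 0.37), Nop10 at -0.54 (SE 0.46), Snu13 at -0.17 (SE 0.34) and Nhp2 at -0.08 (SE 0.39), all within their spread.

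**Figure D5:**
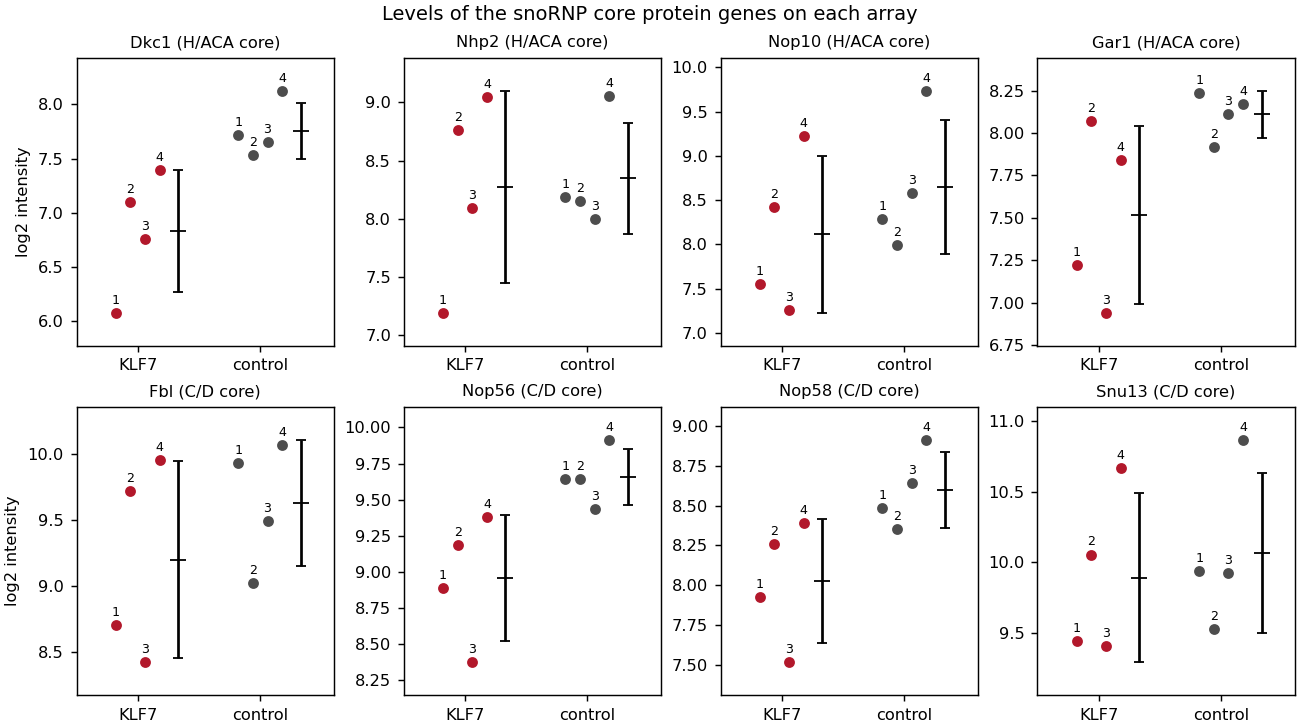
Log2 intensity on each array of the 8 core protein genes of snoRNA particles, H/ACA in the upper row and C/D in the lower, with replicate numbers and the mean ± SD (n = 4) of each group. Dkc1 and Nop56 show no overlap between KLF7 and control, and array 4 is the highest of its group for most genes.

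Core protein genes and snoRNAs ordered the arrays differently within the groups. The mean of the 8 core protein genes was 7.88, 8.70, 7.85 and 8.99 on the KLF7 arrays, and 8.80, 8.52, 8.73 and 9.35 on the control arrays. KLF7 1, the KLF7 array with the highest snoRNA means, was among the 2 lowest for the proteins, and control 4, lowest for snoRNAs among control arrays, was the highest for the proteins.

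All 11 measured assembly factor genes had lower means, from -0.65 to -0.03. Shq1, a chaperone of dyskerin, was at -0.50 (SE 0.18) without overlap, Rpap3, of the complex that loads snoRNP proteins, at -0.45 (SE 0.19), and the H/ACA assembly factor Naf1 at -0.53 (SE 0.28). Znhit6 was at -0.45. Of 9 cap and trafficking factor genes, 6 were on average lower (median -0.13), and none was at an unadjusted p under 0.05. The cap-binding gene Ncbp1 was at -0.37 (SE 0.18) and Nolc1, a nucleolar chaperone of snoRNPs, at -0.48 (SE 0.26), while the export receptor gene Xpo1 was at 0.19 and Ncbp2 at -0.23. Among 14 genes that open intron lariats or trim RNA ends, 11 were on average lower (median -0.21), led by the exosome genes Dis3 (-0.56, SE 0.17) and Exosc2 (-0.62, SE 0.25). Exosc5 was at -0.41, and Dbr1, named for its role after its value was seen, which opens the lariats from which intronic snoRNAs come, was at 0.18 (SE 0.17).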

How the data were processed

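RNA of 8 sorted cell samples was hybridised to 1 single-colour array each. The deposited intensities were RMA values that the authors made (Affymetrix Expression Console is the software the submitters' processing notes name) and ran from 2.20 to 15393, a linear scale, so log2 was taken. Of 35554 probe sets, 21789 carried 1 symbol and gave 19938 genes, and 41 that name a snoRNA with another gene were kept out. limma 3.58.1 (R 4.3.3) fitted group alone with an intensity trend, two-sided, with Benjamini-Hochberg adjustment over all genes and a threshold of 0.05. It was tested on simulated data in which arrays varied independently, with no effect shared by arrays of the same number. Host spans came from the RefSeq table of GRCm38.p6; software versions and the annotation's build are not stated in these sources. The members and lists were chosen with earlier results of these data known. Named members were, per class, the 6 of smallest p in each direction, those of highest (5) and lowest (3) mean and largest SD (3), and a list of processing, Gas5 and Rpl13a snoRNAs; all core proteins, the 4 genes of smallest p in other lists, and hosts. Figures used matplotlib 3.10.9. The result of 1 pair of members that share a host is not reported here.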

Additional observations from a re-analysis of the deposited data

Results flagged for a closer look

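In groups of 4 arrays, 1 value far from the other 3 was found in 2 of 88 groups examined, where chance gives about 1 in 20. Snora33 was at 5.40 on KLF7 3, with the other KLF7 arrays between 6.70 and 6.93. The mean of the C/D snoRNAs was 6.64 on KLF7 1, with the other KLF7 arrays between 6.05 and 6.15. Without KLF7 1 the median difference of the C/D genes was -0.50, in place of -0.35.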

How the results depend on the processing

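The H/ACA median difference of -0.59 ran from -0.68 to -0.46 over the fits that drop 1 array and between -0.75 and -0.45 under the other settings, and the C/D median of -0.35 between -0.52 and -0.27 and between -0.55 and -0.30. The -0.55 came without both arrays numbered 4, a setting chosen after seeing the data, as were leaving out both numbered 2 and a batch term for number 4. Over all genes 0 passed in limma (1637 at an unadjusted p under 0.05), between 0 and 1 with an array left out, 90 with the replicate number as a block and 26 with the batch term. Of the members, 1 passed with the block and 1 with the batch term, Snora44 each time (difference -1.19, adjusted p 0.0403 and 0.0428), and 0 to 0 with an array left out. The numbers were not taken as pairs in the main fit, since the labels do not say what they mark. Deviations of same-numbered arrays correlated at 0.35, -0.13, 0.36 and 0.70 for numbers 1 to 4. Those of KLF7 and control arrays with unlike numbers ran from -0.56 to 0.32, below the values for numbers 1, 3 and 4. What same-numbered arrays share was not tested. Members lower at an unadjusted p under 0.05 numbered 24 with the block, 23 with array weights and 8 without both arrays numbered 2, in place of 14, while over all genes 2691, 2143 and 1176 were at an unadjusted p under 0.05 in either direction, in place of 1637. Without both arrays numbered 2, 21 C/D genes were lower and 10 higher. Of 19 named members followed, 13 kept their sign in all of the 19 settings that gave them a value. These 19 were, per class, up to 6 of smallest p in each direction, so the lower ones were the least likely to change sign. The 6 that did change all had a higher KLF7 mean with all arrays. Lower members not followed changed sign too, such as Snord49a (0.19) and Snord49b (0.05) without control 2. With an array left out, Snora16a ran from -0.0042 to 0.47, Snora70 from -0.19 to 0.26, Snora31 from -0.22 to 0.26, Snord55 from -0.036 to 0.26 and Snord61 from -0.56 to 0.96. Snora2b was at -0.0034 and Snord61 at -0.64 without both arrays numbered 4, Snord61 at -0.41 with array weights, and Snora16a at -0.19, Snora70 at -0.12 and Snora31 at -0.043 without both numbered 2. The cause was not tested. Members among the dimmer 50% of all genes, 16 of 51, are limited by signal over background.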

Other observations

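Terc, the RNA of telomerase, ends in an H/ACA domain that dyskerin binds, and was looked up after the values of the snoRNAs were seen. Its levels were 7.36, 7.32, 8.75 and 6.81 on the KLF7 arrays, and 9.10, 9.39, 8.65 and 7.59 on the control arrays. The groups overlapped, and the difference was -1.12 (SE 0.46, 2.18-fold lower, limma adjusted p 0.541). The RNAs of the 2 ribonuclease particles that cut other RNA precursors, Rpph1 and Rmrp, were at -0.83 (SE 0.39, limma adjusted p 0.627) and -0.57 (SE 0.46, limma adjusted p 0.847).

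The 41 probe sets that name a snoRNA together with another gene were not assigned to either. Of them, 24 name copies of Snord116, a brain-rich imprinted cluster, and their mean per array ran from 3.04 to 5.08 on the KLF7 arrays and from 2.36 to 5.46 on the control arrays. Their median difference was 0.30. Most of these 24 repeated the same values on every array. That repeated reading was at 5.09 on KLF7 4 and 5.49 on control 4, against 2.34 to 3.38 on the other arrays. Of the other 17, 16 were on average lower with KLF7, at a median difference of -0.41 and a range of -1.12 to 0.70. For 0 of them did the groups stand apart. Among these 17, the probe sets of Snora19 repeated each other's values, as did those of Snord1c and Snord1b.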
